A study of Mus musculus with 11 samples.

Results

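Genes that carry iron into cells, store it, release it and sense it were followed in the yolk sac of mouse embryos on embryonic day 9.5. The 10 genes are Tfrc, Steap3 and Slc11a2 for uptake, Fth1 and Ftl1 for storage, Slc40a1 and Heph for export, Ireb2 and Aco1 as sensors, and Hmox1 for release from heme. They were chosen by symbol for these roles, with earlier results of these data known. All 10 are among the 15061 genes of the deposited table, and all 10 are among the 14671 genes that had enough counts to be tested. Their lowest raw count in any library was 63.

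Bulk RNA of the yolk sac was sequenced as 11 libraries in 3 groups. Control 1 to 4 carried 1 floxed Hand1 allele over a normal allele (Hand1 fx/+) by their titles. Their column names and the comparison headers call them WT. H1CKO 5 to 7 were T-Cre+/-; Hand1 fx/fx, with both Hand1 alleles floxed and a Cre recombinase expressed from T (brachyury), which is active in the primitive streak and the mesoderm it forms. H1H2H2 8 to 11 were Hand1 H2/H2, with a Hand2 replacement allele on both chromosomes. How much of the Hand1 sequence that allele leaves in place is not given in the sources used here. Both genes encode transcription factors of the basic helix-loop-helix class, and Hand1 is active in the mesoderm of the yolk sac. The labels name Cre only for H1CKO, so an effect of Cre and the loss of Hand1 cannot be told apart. A second label field of the H1CKO libraries names a Hand1 knockout allele over a floxed one; the genotype field was used. Hand1 stood at 58.1, 91.1, 41.9 and 31.1 CPM (counts per 1e+06 counts, TMM-normalised) in control 1 to 4, at 10.8, 6.18 and 5.95 CPM in H1CKO 5 to 7, and at 15.3, 4.35, 8.59 and 9.97 CPM in H1H2H2 8 to 11. Every library of both mutant groups lay below every control. Hand2 stood at 43.5, 42.3, 47.2 and 31.7 CPM in control, at 70.5, 72.8 and 91.8 CPM in H1CKO, and at 81.0, 23.6, 35.9 and 33.7 CPM in H1H2H2 8 to 11. Among the libraries labelled H1H2H2, H1H2H2 8 thus lay above the controls in Hand2 and the other 3 lay within or below their range, with an edgeR log2 change of 0.08 (adjusted p = 0.873); which part of Hand2 the replacement allele carries is not given in the sources used here.

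Sex, read from Xist and Y-linked genes, was not balanced: control 1, 2 and 4 and H1H2H2 10 were female and the other 7 libraries male, including all of H1CKO. Libraries held 12.02 to 16.82 in units of 1e+06 counts over genes. The column names of control 1 and control 2 hold 1 yolk sac number between them, so they may share a source. The column names of the other libraries each hold a different yolk sac number. The labels do not name litters, so the p-values measure the spread between these libraries, which may be partly technical. Markers of the yolk sac's visceral endoderm were present in every library, 16 of 16 above 0, with a summed level of 38850 to 45003 CPM in control, 9907 to 17003 CPM in H1CKO and 46480 to 49601 CPM in H1H2H2. Markers of cardiac muscle summed to 39.3 to 224 CPM in control, 4239 to 11144 CPM in H1CKO and 28.7 to 66.9 CPM in H1H2H2, and neural and somitic markers to 1.79 to 4.19, 126 to 153 and 1.10 to 4.66 CPM. Where edgeR called 27% of all tested genes higher in H1CKO than in control, all 12 cardiac and all 12 neural and somitic markers were called higher. These are markers of tissues of the embryo proper. In bulk RNA, fewer cells of a type and less RNA of a gene per cell cannot be told apart.

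Iron in plasma travels bound to transferrin, which cells take up through the transferrin receptor. It is then reduced by a STEAP protein, moved out of the endosome by the transporter DMT1, and either used, stored in ferritin or exported through ferroportin. The iron regulatory proteins IRP1 and IRP2 tie these steps together: in iron-poor cells they bind hairpins called iron-responsive elements, which stabilises the transferrin receptor mRNA and blocks translation of the ferritin and ferroportin mRNAs. The visceral endoderm of the yolk sac makes transferrin and passes nutrients to the embryo, and primitive red cells in its blood islands take up iron for heme.

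The hairpins are shown because they are the sites through which the sensors act on the ferritin, ferroportin and transferrin receptor transcripts. A 27-base hairpin was searched on the transcript strand of GENCODE M21 transcripts (mm10): a bulged C, 5 bases of any kind, the loop letters CAGTG and 1 further loop base, with all 5 base pairs above the bulge (G to T allowed) and at least 4 of 5 below it. It matched 4 of the 10 genes, Fth1, Ftl1, Slc40a1 and Tfrc. A gene with 0 matches to this strict form, such as Slc11a2, may still carry an element that the search misses. A matched gene, such as Tfrc, may likewise carry further elements that are not shown. Among 21877 genes the hairpin matched 6 (0.0274%) in a 5′ UTR and 11 (0.0503%) in a 3′ UTR. Capitals mark the bulged C and the 6-base loop, and all sequences are read 5′ to 3′ on the transcript. The ferritin and ferroportin hairpins lie in 5′ UTRs and those of Tfrc in its 3′ UTR.
Fth1, chr19:9982733-9982759, plus strand: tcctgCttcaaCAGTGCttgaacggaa
Ftl1, chr7:45459780-45459806, minus strand: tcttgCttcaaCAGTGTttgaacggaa
Slc40a1, chr1:45925466-45925492, minus strand: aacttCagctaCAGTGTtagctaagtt
Tfrc 1, chr16:32631220-32631246, plus strand: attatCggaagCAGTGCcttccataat
Tfrc 2, chr16:32631599-32631625, plus strand: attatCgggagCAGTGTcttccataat
Tfrc 3, chr16:32631664-32631690, plus strand: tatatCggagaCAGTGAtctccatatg
Tfrc 4, chr16:32631711-32631737, plus strand: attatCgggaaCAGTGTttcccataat
The Fth1 and Ftl1 hairpins were identical at 25 of 27 positions, whereas each Tfrc hairpin was identical to a ferritin hairpin at 9 to 13 of 27. The match is a description of these transcripts, and the RNA levels below do not measure binding or translation.

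Levels of different genes were compared per transcript length, on the authors' log2 FPKM scale. In control, Ftl1 (9.93 ± 0.117, SD, n = 4) and Fth1 (8.15 ± 0.256) were the most abundant, and their ranges did not overlap each other or any other gene. Slc40a1 (5.40 ± 0.138), Tfrc (5.29 ± 0.535) and Aco1 (4.86 ± 0.0997) followed, with the range of Tfrc overlapping both of its neighbours. Hmox1 (4.71 ± 0.0236), Ireb2 (4.47 ± 0.0727) and Slc11a2 (3.37 ± 0.105) came next without overlap, and Steap3 (1.91 ± 0.688) and Heph (1.69 ± 0.279) were lowest and overlapped. In H1CKO, Slc40a1 stood at place 7 instead of 3, at 3.52 ± 0.365 log2 FPKM (n = 3), with a range overlapping that of Hmox1 above it. Heph (2.61 ± 0.0635) stood above Steap3 (1.49 ± 0.615) there. In H1H2H2, Ftl1 reached 10.96 ± 0.136 log2 FPKM (n = 4), and Tfrc (6.01 ± 0.772) stood above Slc40a1 (5.73 ± 0.328) with overlapping ranges. On the CPM scale the ferritin pair made up 64.4% to 66.3% of the summed level of the 10 genes in control, 60.4% to 64.0% in H1CKO and 68.4% to 75.5% in H1H2H2.

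**Figure D1:**
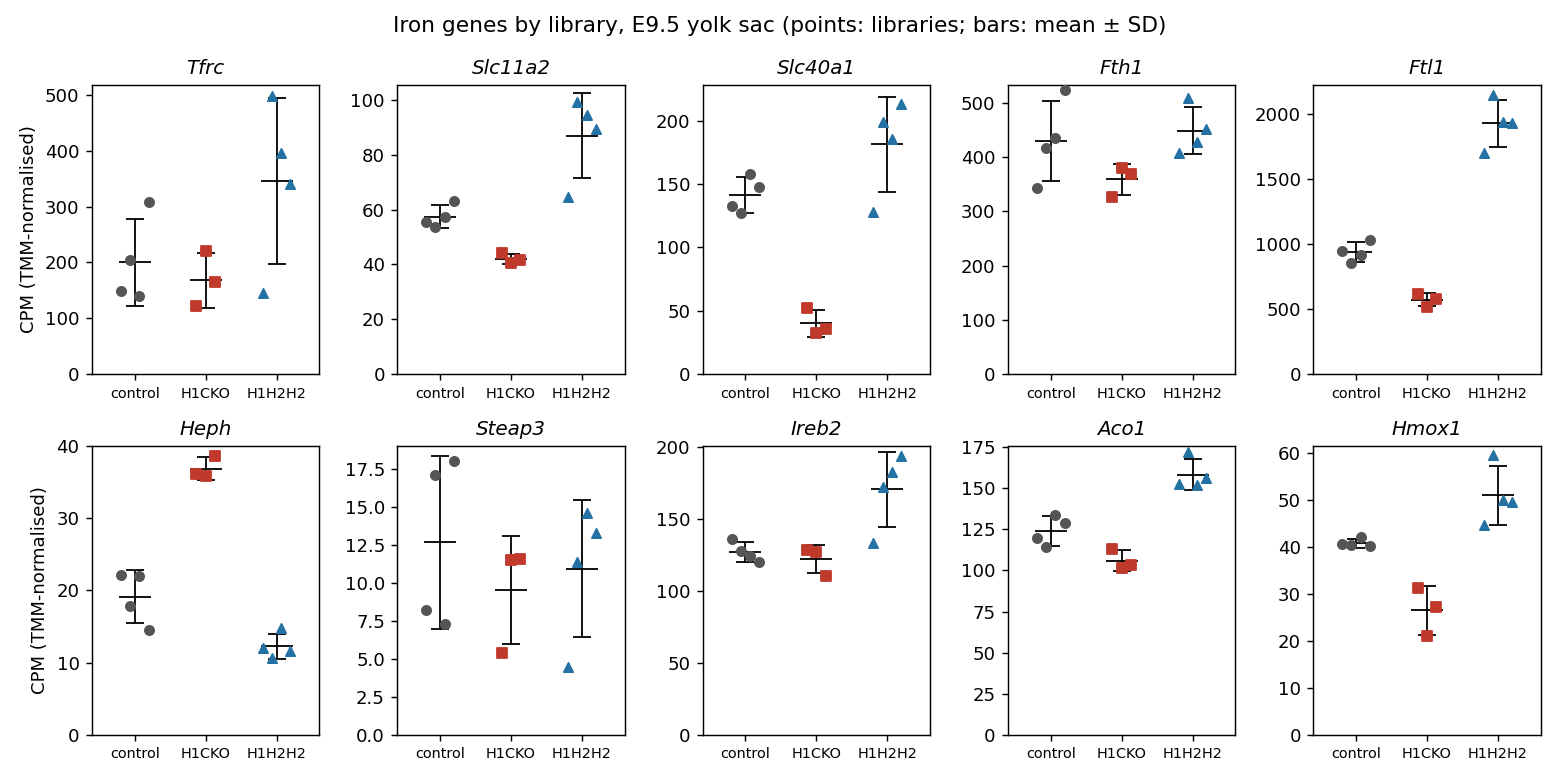
TMM-normalised CPM of each of the 10 genes in every library, by group, with points for libraries and lines for the group mean ± SD. Slc40a1 and Ftl1 lie lower in every H1CKO library than in any control, Heph lies higher, and Tfrc and Steap3 spread widely within each group.

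Against control, 6 of the 10 genes differed in H1CKO, where 52.6% of all tested genes were called by edgeR's quasi-likelihood test at an adjusted p below 0.05. Slc40a1, Ftl1, Hmox1, Slc11a2 and Aco1 (5 of 10) were lower and Heph (1 of 10) was higher, against 25.6% of all genes called lower and 27% called higher. In H1H2H2 against control, 5 of the 10 differed, where 16.7% of all tested genes were called. Ftl1, Slc11a2, Aco1 and Ireb2 (4 of 10) were higher and Heph (1 of 10) was lower, against 9.49% of all genes called higher and 7.16% called lower. Between the mutants, 9 of the 10 differed where 65% of all genes were called, 8 of them higher in H1H2H2, beside 31.8% of all genes, and Heph lower, beside 33.3%. The median log2 change of the 10 genes was -0.34 in H1CKO, 0.36 in H1H2H2 and 0.76 between the mutants, beside 0.03, -0.01 and -0.03 over all tested genes. The comparisons share libraries, so their values are given side by side and not set against one another. The count in H1H2H2 against control was 8 without H1H2H2 8, 3 without H1H2H2 11 and 2 with a term for sex in the fit. Over all genes the number called moved too. It was 2443 in the main fit, ran from 694 to 5055 with 1 library left out, and fell with a term for sex.

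**Figure D2:**
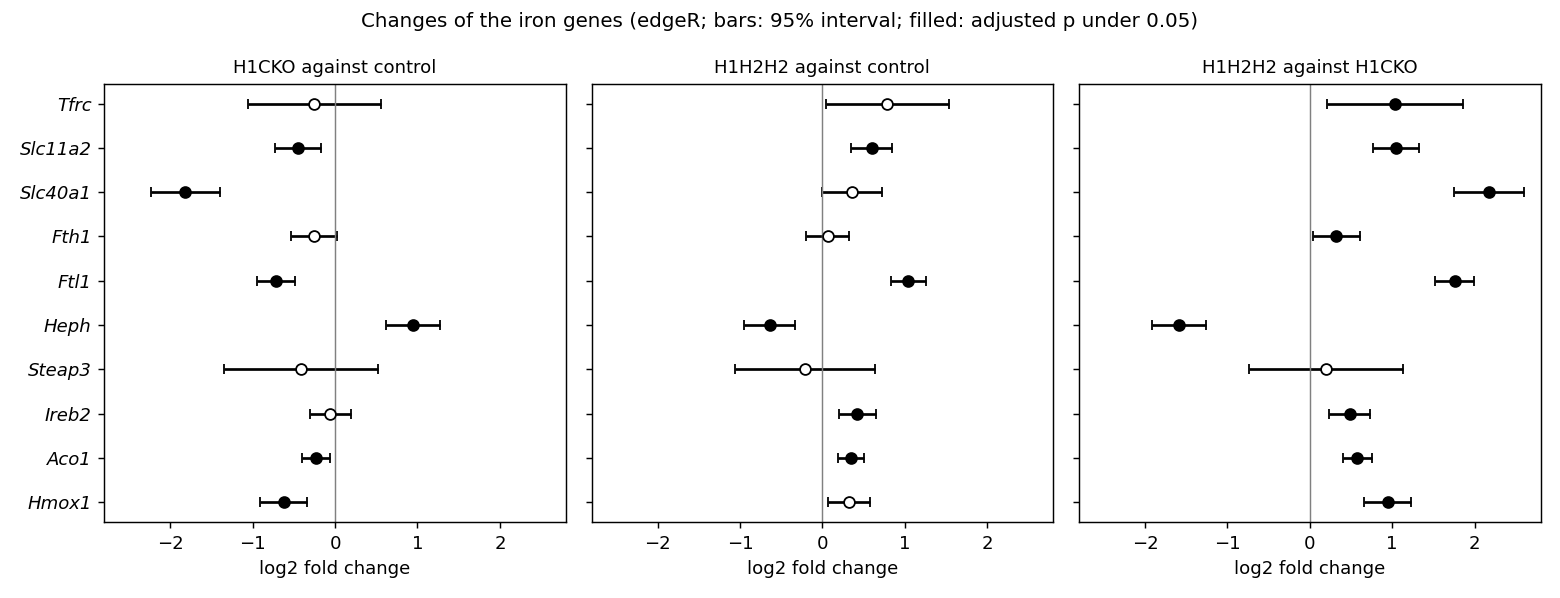
Log2 fold change of the 10 genes in the 3 comparisons, with 95% intervals from the edgeR fit, filled where the adjusted p was below 0.05. Slc40a1 has the lowest value in H1CKO against control at -1.82, and Ftl1 the highest in H1H2H2 against control at 1.04.

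Tfrc (chromosome 16, 32608896 to 32632794, plus strand, mm10) encodes the transferrin receptor. It stood at 149, 205, 139 and 308 CPM in control 1 to 4, at 121, 219.5 and 164 CPM in H1CKO 5 to 7, and at 146, 499, 396 and 341 CPM in H1H2H2 8 to 11. H1H2H2 9, 10 and 11 lay above every other library, H1H2H2 8 lay among the controls, and H1CKO overlapped control. The log2 change was -0.25 (SE 0.371) in H1CKO, with an edgeR adjusted p of 0.593 and a 95% interval of -1.06 to 0.56. It was 0.79 (SE 0.342, adjusted p = 0.126) in H1H2H2 against control, and 1.02 with an adjusted p of 0.0136 when H1H2H2 8 was left out. Between the mutants Tfrc was higher in H1H2H2 by 1.04 (SE 0.378, adjusted p = 0.029), although the groups overlapped. That call was lost without H1CKO 5 (0.87, adjusted p = 0.101), H1CKO 7 (1.02, 0.0786), H1H2H2 9 (0.84, 0.0694) or H1H2H2 10 (0.98, 0.0572), and when the fit held sex (0.92, 0.0547).

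The order of libraries by Tfrc was the same as their order by summed primitive erythroid markers in all 3 groups, and no other of the 10 genes shared that order in more than 1 group. The summed level of 12 erythroid markers was 5060, 8815, 2595 and 11767 CPM in control 1 to 4, 2348, 7489 and 6420 CPM in H1CKO 5 to 7, and 2952, 14945, 9138 and 8305 CPM in H1H2H2 8 to 11. It therefore varied several-fold inside each group, and the groups overlapped. By edgeR 0 of the 12 were called in any comparison, with 0 at an unadjusted p under 0.05. Over all genes 52.6% were called in H1CKO, 16.7% in H1H2H2 and 65% between the mutants. For the 12 markers limma-voom also called 0, and DESeq2 called 1 between the mutants. The part of red cells in the Tfrc values was not tested. Alas2, the heme synthesis enzyme of red cells, had 58.6, 102.6, 36.3 and 151 CPM in control 1 to 4, 35.6, 120.1 and 93.6 CPM in H1CKO, and 40.2, 188, 116 and 104 CPM in H1H2H2. Its highest and lowest libraries in each group were those of Tfrc.

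Steap3 (chromosome 1, 120226416 to 120271082, minus strand) encodes the endosomal ferrireductase of red cell precursors. It stood at 8.24, 17.1, 7.30 and 18 CPM in control 1 to 4, at 5.42, 11.5 and 11.6 CPM in H1CKO 5 to 7, and at 4.45, 11.4, 14.6 and 13.3 CPM in H1H2H2 8 to 11. The libraries low for erythroid markers (control 1 and 3, H1CKO 5 and H1H2H2 8) were the lowest of their groups, and all groups overlapped. No comparison was called by edgeR: the log2 change was -0.41 (SE 0.429, adjusted p = 0.441, 95% interval -1.35 to 0.52) in H1CKO, -0.21 (SE 0.39, adjusted p = 0.725, interval -1.06 to 0.63) in H1H2H2 and 0.20 (SE 0.428, adjusted p = 0.701, interval -0.73 to 1.13) between the mutants. Changes of up to about these bounds could not be seen at this spread.

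Slc11a2 (chromosome 15, 100387900 to 100423055, minus strand) encodes DMT1, which moves ferrous iron out of the endosome and across the apical membrane of absorbing epithelia. It stood at 55.6, 53.7, 57.4 and 63.3 CPM in control 1 to 4, at 44.1, 40.5 and 41.7 CPM in H1CKO 5 to 7, and at 64.5, 99.2, 94.6 and 89.4 CPM in H1H2H2 8 to 11. The 3 groups did not overlap, with H1CKO lowest and H1H2H2 highest, although H1H2H2 8 was close to control 4. Slc11a2 was lower in H1CKO by a log2 change of -0.45 (SE 0.129, adjusted p = 0.0108). Slc11a2 was higher in H1H2H2 by 0.60 against control (SE 0.116, adjusted p = 0.0101) and by 1.05 against H1CKO (SE 0.13, adjusted p = 2.19e-05). Once sex was a term of the fit, the H1CKO difference missed the threshold (-0.39, adjusted p = 0.0843). Of the exon bases of Slc11a2, 6.33% overlap Gm5475 on the opposite strand, and whether counting used strand is not given in the sources used here.

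Ftl1 (chromosome 7, 45457944 to 45459886, minus strand) encodes the ferritin light chain, which helps form the iron core. It stood at 947, 854, 914 and 1034 CPM in control 1 to 4, at 617, 517 and 576 CPM in H1CKO 5 to 7, and at 1702, 2142, 1941 and 1933 CPM in H1H2H2 8 to 11. The groups were fully separate: every H1CKO library was below every control, and every H1H2H2 library was above. Ftl1 was lower in H1CKO by a log2 change of -0.72 (SE 0.105, adjusted p = 0.00013). It was higher in H1H2H2 by 1.04 against control (SE 0.0963, adjusted p = 0.000196) and by 1.76 against H1CKO (SE 0.109, adjusted p = 3.75e-07). Both calls against control held under each single-library omission and with a term for sex. Over the 16 visceral endoderm markers the median log2 change was -1.55 in H1CKO and 0.13 in H1H2H2 against control, and their part in the Ftl1 values was not tested. In the GENCODE transcripts Ftl1 has 7 near-identical copies, of which 0 are in the deposited table, and 34.6% of its exon bases overlap Gm10252, on the opposite strand, and Gm22133. How reads shared with these were counted is not given in the sources used here, so its level is uncertain to that extent.

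Fth1 (chromosome 19, 9980600 to 9985111, plus strand) encodes the ferritin heavy chain, which oxidises iron for storage. It stood at 344, 416, 435 and 524 CPM in control 1 to 4, at 327, 381 and 369 CPM in H1CKO 5 to 7, and at 408, 509, 429 and 452 CPM in H1H2H2 8 to 11. The ranges of H1CKO and H1H2H2 both overlapped that of control. The log2 change was -0.26 in H1CKO (SE 0.129, edgeR adjusted p = 0.111, 95% interval -0.54 to 0.02) and 0.06 in H1H2H2 (SE 0.119, adjusted p = 0.731, interval -0.19 to 0.32). Without control 1, the H1CKO difference passed the threshold (-0.40, adjusted p = 0.0155). Between the mutants Fth1 was higher in H1H2H2 by 0.32 (SE 0.129, adjusted p = 0.0434). That call was lost under upper-quartile scaling (0.21, adjusted p = 0.169), with a term for sex (0.34, 0.052), and without H1CKO 5 (0.28, 0.125), H1CKO 7 (0.34, 0.0785), H1H2H2 9 (0.29, 0.0742) or H1H2H2 11 (0.33, 0.0646).

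The subunits of ferritin thus had different values in the same libraries. The number of Ftl1 reads per Fth1 read, a ratio that library scaling does not touch, was 2.75, 2.05, 2.10 and 1.97 in control 1 to 4. It was 1.89, 1.36 and 1.56 in H1CKO 5 to 7, and 4.18, 4.21, 4.53 and 4.28 in H1H2H2 8 to 11. Every H1H2H2 library lay above every control, and every H1CKO library lay below. The means were 2.22 ± 0.359 (SD, n = 4), 1.60 ± 0.266 (n = 3) and 4.30 ± 0.159 (n = 4); per base of gene length they were 3.46, 2.49 and 6.70. The ratio was chosen after the values of both genes were known and has no test. It describes Ftl1 relative to Fth1 in these libraries and does not show that either stayed constant. In H1CKO against control the 95% intervals of the log2 changes overlapped, at -0.95 to -0.49 for Ftl1 and -0.54 to 0.02 for Fth1. The uncertainty in the level of Ftl1 given above also applies to the ratio.

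**Figure D3:**
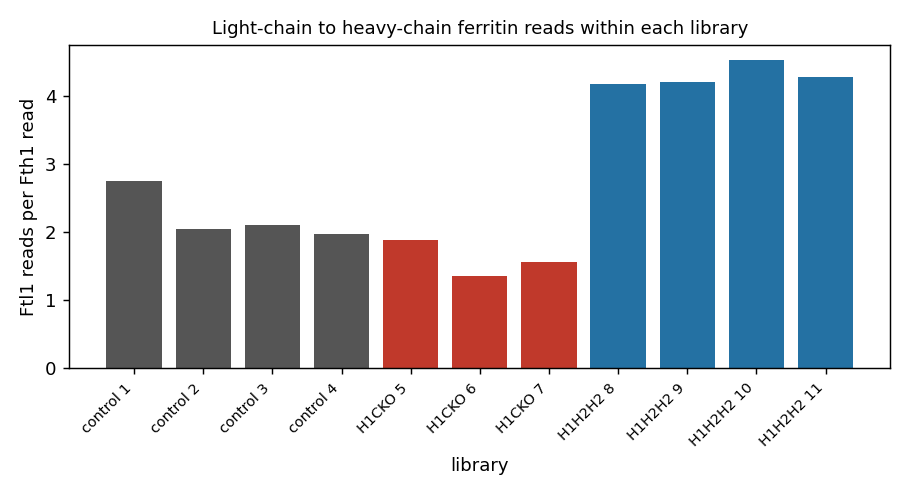
Ftl1 reads per Fth1 read, with a bar for each library coloured by group. The H1H2H2 libraries lie between 4.18 and 4.53, above the control libraries at 1.97 to 2.75 and the H1CKO libraries at 1.36 to 1.89.

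Slc40a1 (chromosome 1, 45908070 to 45925594, minus strand) encodes ferroportin, the known cellular exporter of iron. It stood at 132, 128, 158 and 148 CPM in control 1 to 4, at 52.2, 32.6 and 35.7 CPM in H1CKO 5 to 7, and at 128, 199, 186 and 214 CPM in H1H2H2 8 to 11. All H1CKO libraries lay far below all others, while H1H2H2 8 lay inside the control range and the other 3 H1H2H2 libraries above it. The mean fell from 141.5 ± 14.1 CPM in control to 40.2 ± 10.5 CPM in H1CKO, a log2 change of -1.82 (SE 0.193, adjusted p = 1.63e-05). H1H2H2 had a mean of 181.5 ± 37.4 CPM, with a log2 change of 0.36 against control (SE 0.165, adjusted p = 0.145), and 0.48 with an adjusted p of 0.0162 when H1H2H2 8 was left out. Between the mutants Slc40a1 was higher in H1H2H2 by 2.18 (SE 0.195, adjusted p = 2.41e-06). Of 16 markers of visceral endoderm, 15 were lower and 1 higher in H1CKO, where 25.6% of all genes were lower and 27% higher. Their median log2 change was -1.55. Macrophage markers, of which 8 are in the table, summed to 210.3 to 287 CPM in control, 61.3 to 87.3 CPM in H1CKO and 217 to 242 CPM in H1H2H2, and 1 of them was at 0 in H1CKO 5. The sum rests mainly on Lyve1 (mean 131.7 CPM in control, 29.8 in H1CKO) and Mrc1 (76.0 and 22.8). Csf1r (17.4 and 8.42) and Cd68 (13.8 and 7.74) fell less. The part of these cell types in the Slc40a1 values was not tested.

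Heph (chromosome X, 96455436 to 96574484, plus strand) encodes hephaestin, the membrane ferroxidase that works beside ferroportin in the gut. It stood at 22.2, 17.9, 22.04 and 14.5 CPM in control 1 to 4, at 36.1, 35.8 and 38.6 CPM in H1CKO 5 to 7, and at 12.1, 10.7, 14.7 and 11.6 CPM in H1H2H2 8 to 11. H1CKO lay above all other libraries, and H1H2H2 below all controls but control 4. In H1CKO its direction was opposite to that of Slc40a1. Heph was higher in H1CKO by a log2 change of 0.95 (SE 0.15, adjusted p = 0.000236), and lower in H1H2H2 by -0.64 against control (SE 0.144, adjusted p = 0.0163) and by -1.59 against H1CKO (SE 0.152, adjusted p = 3.66e-06). The H1H2H2 call against control was lost without H1H2H2 11 (-0.63, adjusted p = 0.0529), and also when the fit held sex (-0.63, adjusted p = 0.0532). As a group, H1CKO was also higher in the cardiac, neural and somitic markers given above. In H1CKO 5 to 7, in the order of the Heph values above, the cardiac markers summed to 11144, 4953 and 4239 CPM. The neural and somitic markers summed to 126, 149 and 153 CPM there. The part of these markers' tissues in the Heph values was not tested. The gene is X-linked, and 0.378% of its exon bases overlap Hsf3 on the opposite strand.

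**Figure D4:**
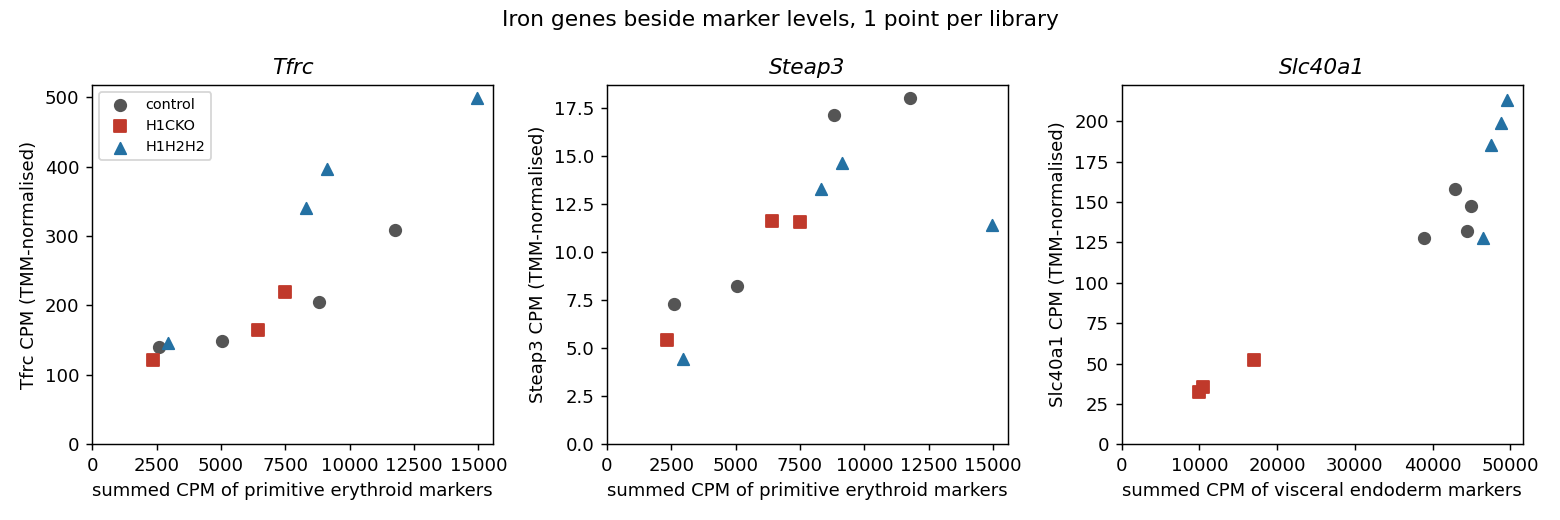
Levels of Tfrc and Steap3 against summed primitive erythroid markers, and of Slc40a1 against summed visceral endoderm markers, in TMM-normalised CPM with 1 point per library. Tfrc follows the summed erythroid markers inside each group, and Slc40a1 is lowest in the 3 H1CKO libraries, where the visceral endoderm markers are lowest.

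Aco1 (chromosome 4, 40143265 to 40199009, plus strand) encodes cytosolic aconitase, which without its iron-sulfur cluster is IRP1. It stood at 119.6, 114, 134 and 129 CPM in control 1 to 4, at 113, 101 and 104 CPM in H1CKO 5 to 7, and at 153, 172, 152 and 156 CPM in H1H2H2 8 to 11. The 3 groups did not overlap, with little space between H1CKO 5 and control 2. Aco1 was lower in H1CKO by a log2 change of -0.23 (SE 0.0786, adjusted p = 0.0281), and higher in H1H2H2 by 0.35 against control (SE 0.0721, adjusted p = 0.0121) and by 0.58 against H1CKO (SE 0.079, adjusted p = 4.63e-05). The H1CKO call was lost under upper-quartile scaling (-0.16, adjusted p = 0.0631) and without H1CKO 6 (-0.23, 0.0557) or H1CKO 7 (-0.21, 0.0897). When the fit held sex, the H1H2H2 difference from control missed the threshold (0.29, adjusted p = 0.0579).

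Ireb2 (chromosome 9, 54863755 to 54912534, plus strand) encodes IRP2, whose protein is degraded when iron is plentiful. It stood at 136, 128, 125 and 120.2 CPM in control 1 to 4, at 128, 127 and 111 CPM in H1CKO 5 to 7, and at 134, 173, 183 and 194 CPM in H1H2H2 8 to 11. H1CKO overlapped control, and 3 of the 4 H1H2H2 libraries lay above every control. The log2 change was -0.06 in H1CKO (SE 0.113, edgeR adjusted p = 0.691, 95% interval -0.30 to 0.19). Ireb2 was higher in H1H2H2 by 0.42 against control (SE 0.104, adjusted p = 0.0211) and by 0.48 against H1CKO (SE 0.114, adjusted p = 0.00253). The call against control was lost without control 2 (0.42, adjusted p = 0.0514), control 3 (0.40, 0.0602), H1H2H2 9 (0.41, 0.0527), H1H2H2 10 (0.39, 0.0601) or H1H2H2 11 (0.35, 0.0691), and with a term for sex (0.47, 0.0515).

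Hmox1 (chromosome 8, 75093618 to 75100593, plus strand) encodes heme oxygenase 1, which frees iron from heme. It stood at 40.5, 40.3, 42.1 and 40.1 CPM in control 1 to 4, at 31.3, 20.9 and 27.2 CPM in H1CKO 5 to 7, and at 44.6, 59.6, 50.01 and 49.6 CPM in H1H2H2 8 to 11. The controls lay within about 2 CPM of each other, with every H1CKO library below and every H1H2H2 library above them. Hmox1 was lower in H1CKO by a log2 change of -0.62 (SE 0.131, adjusted p = 0.0017). The difference of 0.32 between H1H2H2 and control (SE 0.117) had an edgeR adjusted p of 0.077, which was 0.0274 without H1H2H2 8 and 0.05 without H1CKO 6, just under the threshold. Between the mutants Hmox1 was higher in H1H2H2 by 0.94 (SE 0.131, adjusted p = 5.3e-05).

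The sex of the libraries bears on these comparisons because control 3 is the sole male control. Among the 7 male libraries, where the control has no replicate and is taken to vary like the mutants, 3 of the 10 genes were called by edgeR in H1CKO against control, where 22.7% of all tested genes (3401) were called. In H1H2H2 against control 0 of the 10 were called, where 0.187% of all tested genes (28) were. In H1H2H2 against control the log2 change was 1.07 for Ftl1 (adjusted p = 0.134), -0.95 for Heph (0.105), 0.56 for Slc11a2 (0.518), 0.42 for Ireb2 (0.557) and 0.26 for Aco1 (0.567). The calls of Slc11a2 (-0.46, adjusted p = 0.175), Aco1 (-0.35, 0.114) and Hmox1 (-0.68, 0.0746) in H1CKO were lost there too. The direct comparison of the mutants, where 54.7% of all tested genes were called, had 8 of the 10 called, with Tfrc lost (0.97, adjusted p = 0.0675).

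Other genes of iron and heme handling were taken from 7 lists by role, 83 genes in all, each of them tested. In H1CKO 9 of the 83 were higher and 34 lower than in control, where 27% of all tested genes were higher and 25.6% lower, with a median log2 change of -0.32. In H1H2H2 12 were higher and 1 lower than in control, beside 9.49% and 7.16% of all genes, with a median of 0.08. Between the mutants 41 were higher in H1H2H2 and 11 lower, beside 31.8% and 33.3% of all genes, with a median of 0.46. The 12 became 20 without H1H2H2 8, 5 without control 1, H1H2H2 9 or H1H2H2 11, 6 without control 3, 7 without H1H2H2 10, 7 with a term for sex and 0 in male libraries only. The 1 gene lower than control became 7 without H1H2H2 8, 2 without control 4, and 0 without control 1, 2 or 3 or H1H2H2 9, 10 or 11. Over all genes in H1H2H2 against control, 430 to 2477 were called higher and 264 to 2578 lower with 1 library left out. The 11 became 7 without H1CKO 6 or H1H2H2 11. Lcn2, Ftmt, Hephl1, Hamp, Hjv, Tmprss6, Cd163, Flvcr1 and Flvcr2 were not analysed here.

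Of 13 further genes of iron uptake and reduction, 7 were lower and 0 higher in H1CKO, where 25.6% of all genes were lower and 27% higher. Trf, the gene of transferrin, stood at 1400, 1204, 1291 and 1439 CPM in control 1 to 4, at 538, 334 and 384 CPM in H1CKO 5 to 7, and at 1451, 1742, 1521 and 1694 CPM in H1H2H2 8 to 11. It was lower in H1CKO by a log2 change of -1.67 (SE 0.152, adjusted p = 6.82e-06), while 0.26 in H1H2H2 had an adjusted p of 0.18. Slc39a8, a metal importer, fell from 495 to 115 CPM in H1CKO (log2 change -2.10, adjusted p = 3.41e-06), and Steap2, a ferrireductase, from 145 to 62.5 CPM (-1.21, 1.34e-06). Mfi2, which encodes melanotransferrin, fell from 18.2 to 3.82 CPM (-2.25, 1.32e-05). Of 10 genes of storage, chaperoning, export and hormone control, 6 were higher in H1CKO, where 27% of all genes were, and 3 were lower, a share near the 25.6% of all genes. They include Smad7, an inhibitor of BMP signalling, which rose from 29 to 64.3 CPM (1.15, 2.82e-05), and Ncoa4, the cargo receptor for ferritin breakdown, which fell from 80.6 to 57.0 CPM (-0.50, 0.00204). Id1, a BMP target, rose in both mutants against control, by 0.42 in H1CKO (adjusted p = 0.00139) and 0.46 in H1H2H2 (0.00686).

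Of 23 genes of mitochondrial iron and iron-sulfur clusters, 10 were lower and 0 higher in H1CKO, where 25.6% and 27% of all genes were, among them Hspa9, a chaperone of cluster transfer (-0.44, adjusted p = 0.00264). Of 9 genes of heme synthesis, 2 were lower in H1CKO, a share no larger than the 25.6% of all genes. They were Alas1 (-0.83, adjusted p = 3.28e-05), the first enzyme of the path in most tissues, and Fech (-0.65, 0.00697), the last one, which missed the threshold when the fit held sex (adjusted p = 0.089). In H1H2H2 against control, where 16.7% of all genes were called, edgeR called 0 of the 9, with 0 at an unadjusted p under 0.05. DESeq2 and limma-voom each called 0. Alas2 had a log2 change of -0.07 in H1CKO (adjusted p = 0.926) and 0.36 in H1H2H2 (adjusted p = 0.634). Of 10 genes of heme breakdown and transport, 6 were lower in H1CKO, where 25.6% of all genes were, among them Abcg2, a heme and porphyrin exporter (-1.08, adjusted p = 2.53e-05). Pgrmc1, a heme-binding membrane protein, was higher in H1H2H2 (0.48, adjusted p = 0.0102) and lower in H1CKO (-0.42, 0.00496), the latter missing the threshold when the fit held sex (adjusted p = 0.0566).

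Hmox1 is a target of the activator NRF2 and the repressor BACH1. Of 14 other targets and regulators in that list, 6 were lower and 1 higher in H1CKO, where 25.6% of all genes were lower and 27% higher. In H1H2H2 4 of the 14 were higher than in control, where 9.49% of all genes were. The 4 became 2 without control 3, H1H2H2 9 or H1H2H2 11. Over all genes the number called higher ran from 430 to 2477 with 1 library left out. Nfe2l2, which encodes NRF2, fell in H1CKO by 0.55 on the log2 scale (adjusted p = 0.000203), and Gclc, for glutathione synthesis, fell by 0.76 (6.78e-06). Slc7a11, a cystine importer, rose from 0.604 to 3.00 CPM (2.28, 0.000251). Bach1 itself had a change of -0.04 in H1CKO (adjusted p = 0.728) and rose in H1H2H2 by 0.43 (0.00819), and Gsr, glutathione reductase, fell in H1CKO by 0.52 (0.00132) and rose in H1H2H2 by 0.50 (0.00988).

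Of 6 other transcripts known to carry an iron-responsive element, 2 were higher and 1 lower in H1CKO, where 27% of all genes were higher and 25.6% lower, with a median log2 change of 0.01. The higher ones were Pfn2, an actin-binding profilin (0.87, adjusted p = 0.000172), and Cdc14a, a phosphatase (0.94, adjusted p = 0.000282). Between the mutants 1 was higher in H1H2H2 and 3 were lower, where 31.8% of all genes were higher and 33.3% lower. In H1H2H2 against control, where 16.7% of all genes were called, edgeR called 0 of the 6, with 2 lower at an unadjusted p under 0.05. There limma-voom called 0 and DESeq2 called 1 lower. Without H1H2H2 8 edgeR called 2 lower, and without control 4 it called 1 lower. Over all genes the number called lower ran from 264 to 2578 with 1 library left out.

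**Figure D5:**
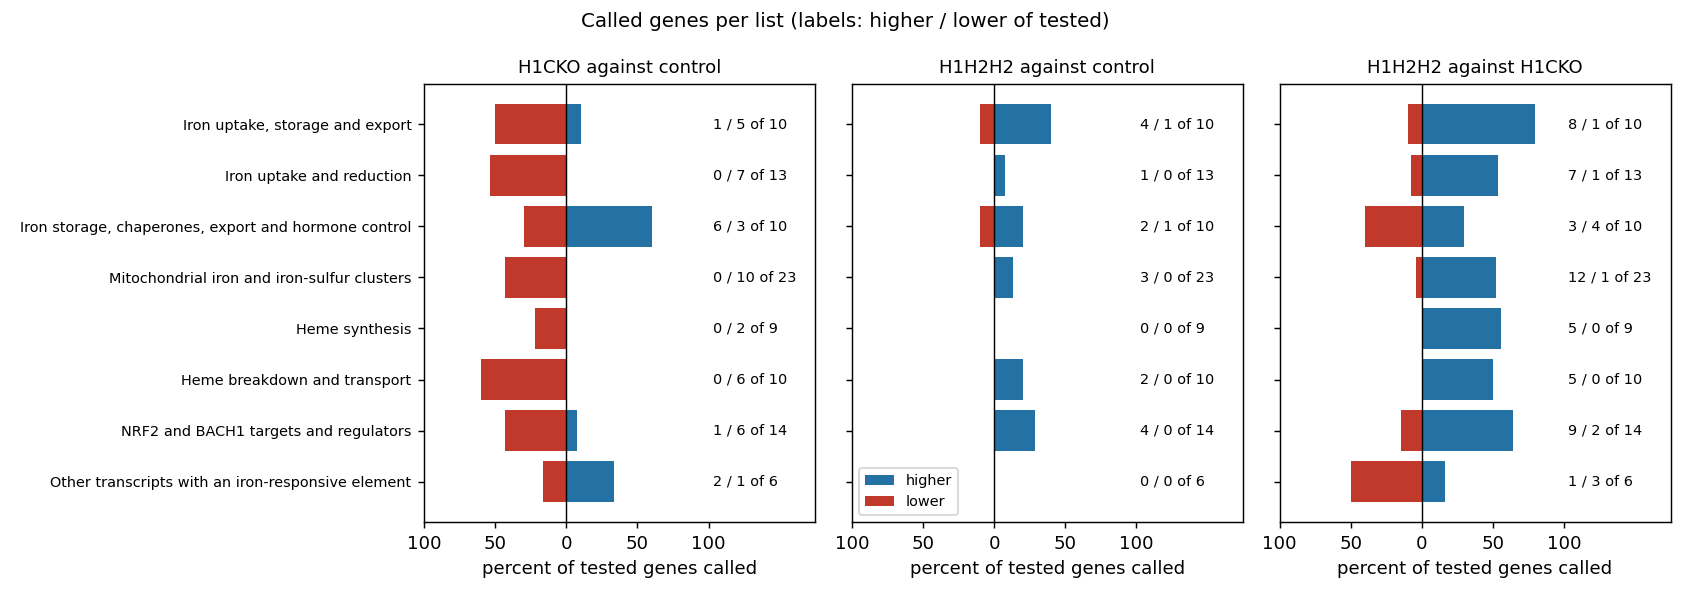
Percent of tested genes called higher (right) and lower (left) by edgeR in each list and comparison, with the 10 iron genes in the top row and the counts beside the bars. In H1CKO against control the lists of uptake, mitochondrial iron and heme breakdown hold 7, 10 and 6 lower genes and no higher ones, the storage list 6 higher and 3 lower, and the list of other iron-responsive element transcripts 2 higher and 1 lower, where 25.6% of all genes were lower and 27% higher.

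Genes whose pattern over the 11 libraries was most like that of an iron gene were found by the root mean square difference of centred log2 CPM. Near to Tfrc were Abcb10 (0.195) and Gmpr (0.221), against a spread of 0.659 for Tfrc itself. Nearest to Slc40a1 were Gpr155 (0.121), Kynu (0.123) and Sgpp2 (0.127), against 0.937. Nearest to Heph were Usp54 (0.117), Tmem198b (0.125) and Cpt1c (0.140), against 0.653, and nearest to Hmox1 were Plekhh1 (0.089), Csrnp1 (0.0907) and Znhit2 (0.0928), against 0.409. The 11 points share the 3 groups, so these are descriptions with no test.

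In the authors' deposited table, the direction and the call at an adjusted p of 0.05 were the same as here in 30 of 30 comparisons of the 10 genes. Both sets of calls rest on the same 11 libraries, and the submitters also name edgeR, so the match is not independent support.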

How the data were processed

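The submitters' processing notes name STAR 2.5.2b, Subread 1.5.1, featureCounts, edgeR and the mm10 build, without roles or settings. Per the file headers, the deposited table holds raw read counts per gene and library. It also holds values deposited by the authors as log2 FPKM, used for levels between genes, and gene lengths. The authors also deposited log2 fold changes, signed fold changes given as a score, and p-values with FDR for each comparison; these served only for the comparison of calls.

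Counts of 11 libraries were fitted with edgeR 4.0.16 (R 4.3.3): filterByExpr, TMM factors, quasi-likelihood tests in 1 model with 1 coefficient for each group, and p adjusted by Benjamini and Hochberg over 14671 genes at 0.05. The SE is the log2 fold change over the square root of F, and 95% intervals use it unadjusted. The common biological coefficient of variation was 0.171, and Rn45s took 5.61% to 11.4% of counts. The fit was tested on simulated data. Alternatives were DESeq2 1.42.0, limma-voom (limma 3.58.1), other scalings and filters, a term for sex, fits to only the groups compared or without globin genes and Rn45s, and each library left out. The fit to male libraries, and that without control 2 and H1H2H2 8, were chosen after seeing the data. Near-identical copies were found with BLAST+ 2.17.0.

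The 10 genes and the lists were chosen with earlier results of these data known. Genes named from the lists follow the smallest p within a list, restricted for H1H2H2 against control to calls kept under each single-library omission; that restriction, and the choice of erythroid and ferritin values, came after the values were seen. Some genes that these rules name are left out of the text.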

Additional observations from a re-analysis of the deposited data

How the results depend on the processing

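Of the 10 iron genes, the number called in H1H2H2 against control was 5; it was 2 with a term for sex, 0 in male libraries only, and 3 to 8 with 1 library left out. In H1CKO against control it was 6, 3 in male libraries only, and 5 to 7 with 1 library left out; between the mutants it was 9, and 7 to 9. The sign of uncalled changes turned in some fits, and the cause was not tested. With a term for sex the log2 change in H1CKO was 0.12 for Tfrc, 0.22 for Steap3, 0.0074 for Ireb2 and 0.59 for Alas2; Steap3 was 0.20 in H1H2H2 and -0.019 between the mutants, and Hand2 -0.080 in H1H2H2. In male libraries only, it was 0.27 for Tfrc, 0.38 for Steap3 and 1.19 for Alas2 in H1CKO, and 0.41 for Steap3 and -0.038 for Hand2 in H1H2H2. Without control 2 and H1H2H2 8 it was 0.016 for Alas2 in H1CKO, 0.22 for Steap3 and -0.39 for Hand2 in H1H2H2, and -0.0026 for Hand1 between the mutants. Upper-quartile scaling gave 0.0045 for Ireb2 in H1CKO, and limma-voom -0.070 for Hand2 in H1H2H2. With 1 library left out, the H1CKO change ran from -0.53 to 0.012 for Tfrc, -0.13 to 0.0086 for Ireb2 and -0.48 to 0.32 for Alas2. The H1H2H2 change ran from -0.42 to 0.029 for Steap3, -0.042 to 0.16 for Fth1, -0.025 to 0.75 for Alas2 and -0.42 to 0.28 for Hand2, and the change between the mutants from -0.064 to 0.46 for Steap3. Upper-quartile scaling moved the median of all genes by -0.113 between the mutants. Over all genes, 2443 were called in H1H2H2 against control, 808 with a term for sex and 694 to 5055 with 1 library left out; in H1CKO against control 7721, and 3401 in male libraries only. Of 924 recounts of the gene lists, 809 stayed within 1.5 times the value given. No paired analysis was possible because the groups share no replicate numbers. For Tfrc and Steap3, differences well beyond the SE given can also go uncalled with 3 or 4 libraries a group. Tfrc in H1H2H2 against control, at 0.79 with an SE of 0.342, had an edgeR adjusted p of 0.126.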
